A study of Mus musculus with 12 samples.

Results

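The genes described here code for the core spliceosome and for the SR proteins, which help the spliceosome to find exons. They are the rows of the count table whose symbol begins with Snrp, Sf3a, Sf3b, Prpf or U2af, or is a numbered Srsf gene or one of Lsm1 to Lsm8. The rule found 56 genes among the 24562 in the table, and it used names only, not expression. Of these, 54 passed the filter on low counts, beside 13943 genes in all, and the exceptions were Lsm7 and Srsf12, each with 0 to 11 reads per pool. RNA-Seq had been run on oocytes of CD-1 mice, and the 12 samples were pools of 18 to 45 oocytes, with n = 3 pools in each of 4 cohorts. The mice were of postnatal day (PND) 13, 16 or 40, and those of day 16 were divided by body weight into the cohorts PND 16 small and PND 16 large. The mice were untreated and carried no engineered allele, and their ovaries were not stimulated with hormones. The oocytes came from antral follicles, had an intact germinal vesicle and had been stripped of cumulus cells. The study compared the cohorts pairwise. It also set meiotically competent oocytes (PND 16 large and PND 40, n = 6 pools) against non-competent oocytes (PND 13 and PND 16 small, n = 6 pools). Competent oocytes can resume meiosis in culture and reach metaphase of meiosis II. The paper assigned competence by cohort, and for the weight groups of PND 16 from few mice whose data it did not show. Over the competent and non-competent groups, age, body weight and competence changed together and cannot be told apart. Within PND 16, age was the same, while body weight and competence still changed together.

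The spliceosome removes introns from pre-mRNA. It is built anew on each intron from small nuclear ribonucleoproteins (snRNPs), each a small nuclear RNA with its proteins: the U1 snRNP reads the 5′ splice site, U2 with its SF3A and SF3B subunits reads the branch point, U2AF reads the end of the intron, and the U4/U6.U5 tri-snRNP brings the catalytic core. SR proteins bind exons through RNA recognition motifs and recruit these parts through domains rich in serine and arginine. A growing oocyte transcribes, splices and stores mRNA, and transcription falls silent near the end of growth, so that the fully grown oocyte works largely from stored mRNA and protein. The values below are levels of mRNA, not of protein or of splicing.

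Sequencing gave 17671193 to 27418358 counted reads per pool, and the 56 genes together took 0.353 to 0.423% of it. Oocyte markers were high in every pool, with a summed level of at least 19249 CPM (counts scaled to a common total) over 14 genes, such as the zona pellucida genes and Gdf9. The summed level of the PND 40 pools, at 19249 to 19751 CPM, lay below that of the other 9 pools, at 21194 to 26438 CPM. In PND 40 vs. PND 13, 3 of the 14 genes were called lower and 0 higher. The fall was not shared by all of them. From PND 13 to PND 40, Zp2 went from 3551 to 4089 CPM to 2121 to 2262 CPM. Ooep went from 583 to 707 CPM to 773 to 795 CPM. Gdf9 overlapped, at 3302 to 4073 CPM and 3928 to 4017 CPM. The 12 granulosa cell markers had a summed level of 539, 131 and 623 CPM in the PND 13 pools, of 189, 686 and 264 CPM in the PND 16 small pools and of 167 to 216 CPM in the competent pools. Nr5a2 gave 87.9 to 146 CPM of the sum in every pool, whereas Inha ranged from 2.34 to 143 CPM. The 3 pools with the highest sums (PND 13 pools 1 and 3, PND 16 small pool 2) stood apart, and results are therefore also given without them. Rn45s, the precursor of ribosomal RNA, was at 14332 to 30173 CPM in the non-competent pools and at 5195 to 9925 CPM in the competent pools, with no overlap. Of 10 theca and stroma markers, the summed level was 7.96 to 49.5 CPM. Of 9 blood and immune markers the 4 globin genes were listed at 0 in every pool, and the list's sum of 53.1 to 65.4 CPM was nearly all Pecam1. The part of granulosa cell RNA and of ribosomal RNA in the differences below was not tested beyond the values given. In pooled oocytes, less of an mRNA per oocyte and more of all other RNA cannot be told apart, since CPM is a share. Each cohort's oocytes came from 3 mice and were made into independent pools. Whether each pool held the oocytes of a single mouse is not given in the sources used here, so p-values measure the spread between pools.

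To compare levels between genes, CPM was divided by the length of the gene's exons (CPM per kb). This length joins the exons of every annotated isoform, so it can exceed that of the mRNA present. Lsm8 has 4199 bases of exon but 898 different stretches of 50 bases in its coding transcripts. Prpf8 has 7461 and 7487. The part of this in the ranks below was not tested. On this scale Prpf8, the protein at the heart of the catalytic core, stood highest at 100.1 CPM per kb, followed by Prpf6 with 49.6 and Sf3b1 with 46.6, a scaffold of the tri-snRNP and the large subunit of SF3B that holds the branch point. Srsf2, with 43.7 CPM per kb, was the highest SR protein gene, and Sf3a1 followed with 38.7. At the other end, Srsf12 was at 0.0453 CPM per kb, Lsm7 at 0.0627, Snrpg at 0.527, Lsm8 at 0.591 and Snrpf at 0.628. The proteins of the Sm ring form one complex in equal numbers, yet their mRNA levels spread from Snrpg to Snrpd1, which was at 11.5 CPM per kb. Part of the low levels came with sequence that is not unique. Of the 6 genes with a mean under 2 CPM, 5 shared at least 10% of the 50-base words in their transcripts with another gene. Such a gene can be a pseudogene or an overlapping gene. Of all 56 genes, 20 shared at least 10%. The shares of the 5 were 89.5% for Snrpf, 35% for Lsm5, 26.5% for Snrpn, 23.3% for Lsm7 and 18.6% for Snrpg. Reads from a copy elsewhere in the genome cannot be placed on a single gene, and reads from genes that overlap on opposite strands can be placed only where the counting used strand, which is not given in the sources used here. Their part in the low levels was not tested. Most of the words of Snrpf are those of Ccdc38, which overlaps it on the other strand and was at 33.8 to 60.2 CPM. Over all 56 genes the shared percentage and the CPM per kb had a Spearman rho of -0.16 (across genes, which are not independent), and Srsf4 (65.4% shared) and U2af1l4 (60.3%) stood at 22.3 and 27.4 CPM per kb.

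**Figure D1:**
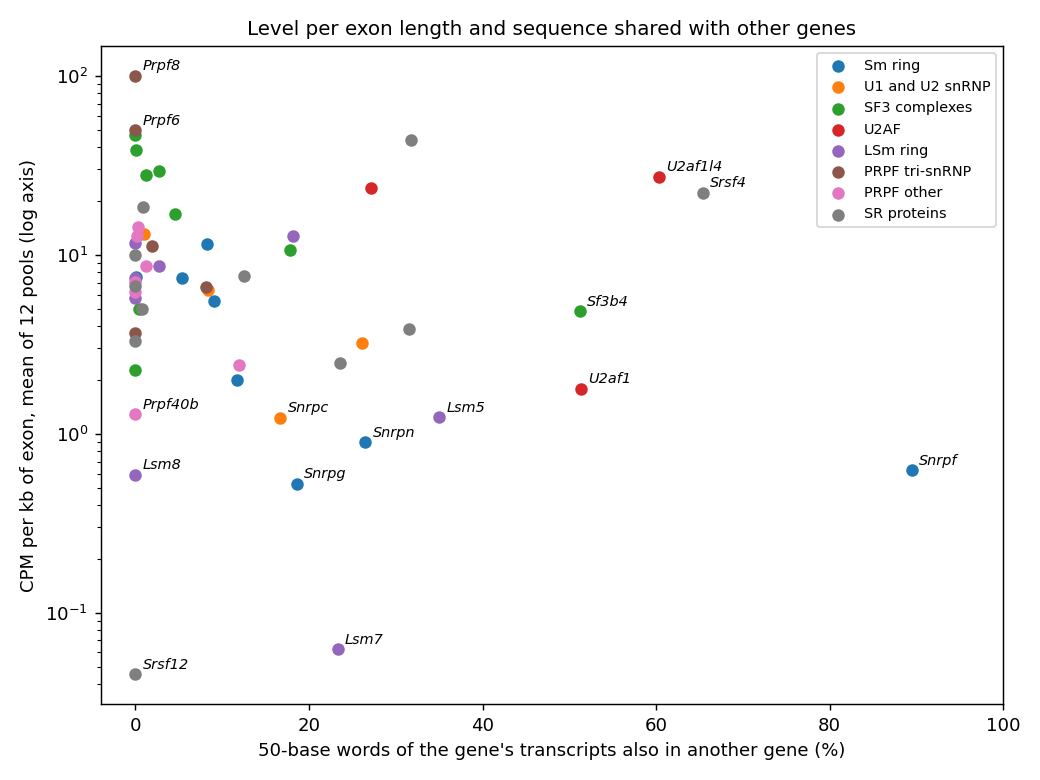
Level per exon length (CPM per kb, mean of 12 pools, log axis) of 55 of the 56 genes against the percentage of their 50-base words that also occur in transcripts of another gene, coloured by role. Prpf8 at 100.1 CPM per kb shares no word, Snrpf at 0.628 shares 89.5%, and Srsf12 is low with no shared word.

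To ask which of these genes differ with meiotic competence, competent pools were compared with non-competent pools. Each group joins cohorts of different age, and the model took the pools of a group as replicates, with no term for cohort. A gene was called where its adjusted p did not exceed 0.05 and its change reached 1.5-fold. By these criteria 1 of the 54 genes was higher in competent oocytes (Snrpn) and 4 were lower (Lsm1, Snrpb, Prpf4 and Srsf9). Over all genes tested, 3.78% were higher and 11.2% lower by the same criteria (quasi-likelihood test of edgeR, adjusted after Benjamini-Hochberg over all genes, as for every adjusted p below). Without the criterion on fold, 17 of the 54 genes were higher and 7 lower, beside 14.2% and 16.5% of all genes. Most of these changes were small: the median log2 fold change of the 54 genes was 0.15 beside -0.0046 over all genes, and 38 of them (70.4%) lay above 0 beside 49.6% of all genes. The summed level of all 56 genes was 3506 to 3709 CPM in the non-competent pools and 3817 to 4250 CPM in the competent pools, and the sum is carried by abundant genes such as Prpf8 and Sf3b1. Without the 3 pools with high granulosa markers, 10 of 56 genes then tested were higher and 5 lower on adjusted p alone, 14 of them among the 24, beside 7.63% and 10.6% of all genes. The non-competent group then holds only PND 13 pool 2 and PND 16 small pools 1 and 3, and the part of this smaller size was not tested. With the granulosa marker level as a covariate and all pools kept, 16 of the 54 genes were higher and 7 lower on adjusted p alone. Of these, 22 were among the 24, beside 12.9% and 15.2% of all genes.

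**Figure D2:**
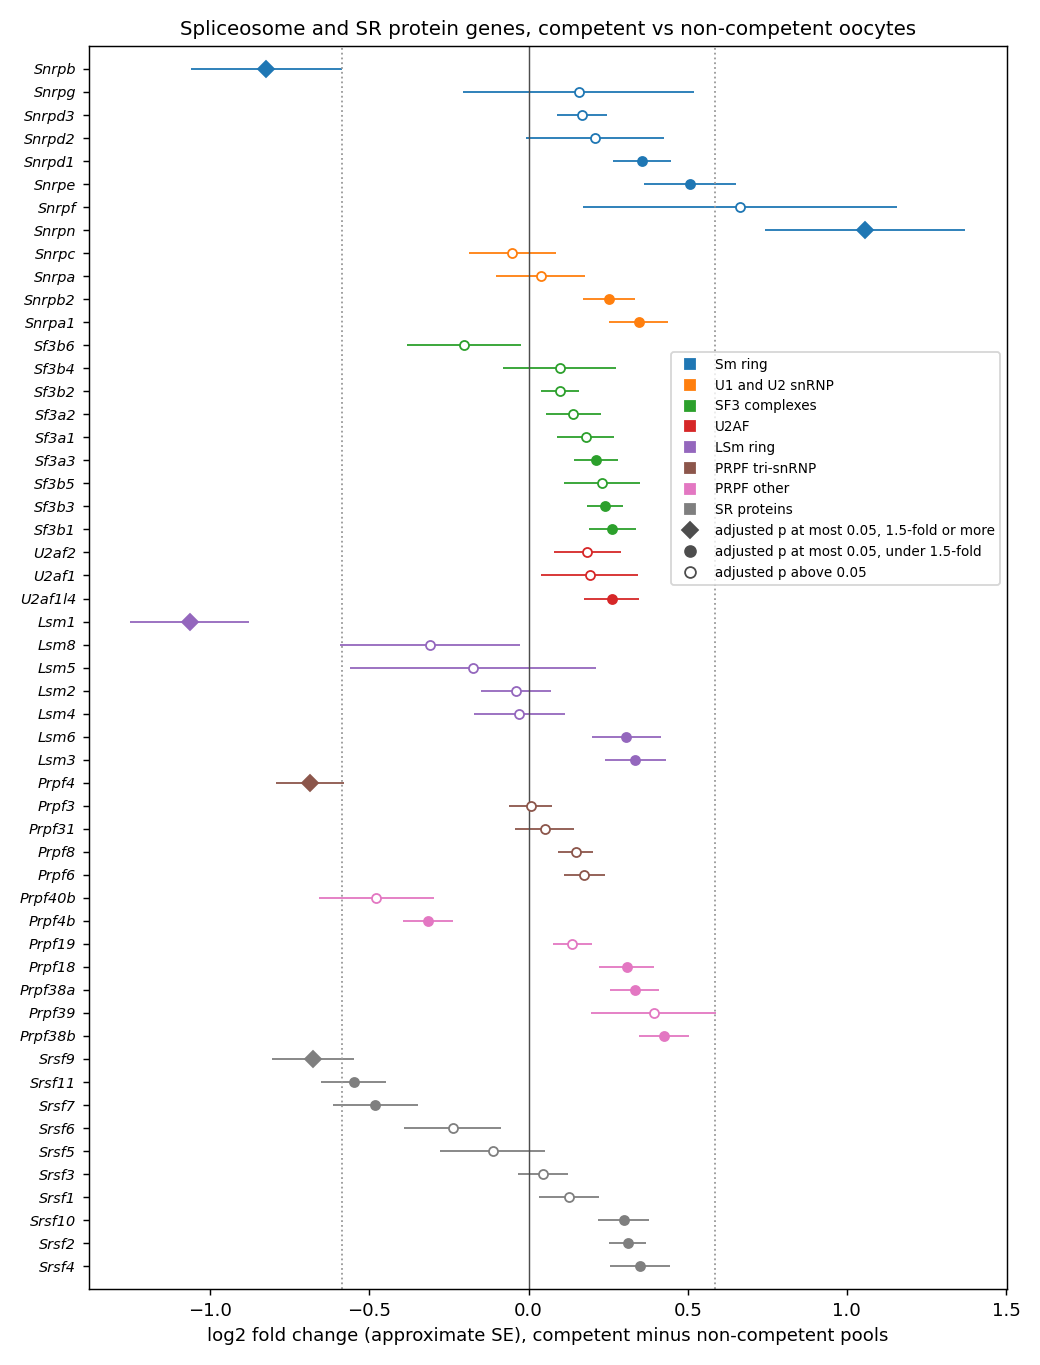
Log2 fold change of competent over non-competent pools (n = 6 and 6) for 53 of the 54 genes tested, ordered within role groups, with bars of 1 approximate SE and dotted lines at a 1.5-fold change. Filled diamonds are the 5 genes that met both criteria, filled circles met adjusted p alone, and open circles neither.

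The Sm proteins form a ring around U1, U2, U4 and U5 small nuclear RNA. Among the 8 Sm genes, Snrpn was higher and Snrpb lower in competent oocytes, Snrpd1 and Snrpe were higher on adjusted p alone, and the median log2 fold change was 0.28. Snrpb (chr2:130171414-130179403, minus strand; all coordinates are those of GENCODE M21 on GRCm38) codes for SmB, the widespread form of the protein, and Snrpn (chr7:59982495-60140219, minus strand) codes for SmN, a near-identical protein best known from brain that can take the place of SmB. Snrpb was at 18.1, 18.9 and 22.8 CPM at PND 13, at 17.4, 17.6 and 19.5 in PND 16 small, at 14.0, 16.1 and 14.6 in PND 16 large and at 5.62, 6.89 and 7.42 at PND 40. All 6 competent pools lay below all 6 non-competent pools, and the PND 40 pools lay far below the rest. The difference was 1.77-fold (log2 fold change of -0.82, SE 0.24, adjusted p = 0.0170), from 19.1 ± 2.01 to 10.8 ± 4.60 CPM (mean ± SD, n = 6 pools each). Without the 3 pools with high granulosa markers it was -0.78 with an adjusted p of 0.104. With the granulosa marker level as a covariate it was -0.79 (adjusted p = 0.0286). In PND 16 large vs. small the log2 fold change of Snrpb was -0.29, which was not called even on adjusted p alone.

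Snrpn was at 0.812, 1.09 and 0.655 CPM at PND 13, at 1.99, 1.85 and 1.13 in PND 16 small, at 3.85, 2.37 and 2.27 in PND 16 large and at 3.05, 1.83 and 2.32 at PND 40. The groups overlapped between the lowest PND 40 pool and the higher PND 16 small pools. The log2 fold change was 1.06 (SE 0.31, adjusted p = 0.0198), from 1.25 ± 0.547 to 2.61 ± 0.719 CPM. These are 16 to 94 reads per pool. The adjusted p was 0.0544 without PND 16 large pool 1 and 0.0858 without the 3 pools with high granulosa markers. It was 0.0352 with the granulosa marker level as a covariate. Snurf, which lies on the same strand as Snrpn and is transcribed with it, was listed at 0 reads in every pool. By counting error alone this allows up to 3 reads in a pool. The 2 genes overlap, and 167 of the 50-base words of Snrpn also occur in Snurf. How reads that fall in both were counted is not given in the sources used here. The 0 therefore does not show that Snurf was absent, and the reads of Snrpn are uncertain too. As a share of Snrpb and Snrpn together, Snrpn was 4.18 ± 1.35% at PND 13, 8.41 ± 2.57% in PND 16 small, 16.0 ± 4.87% in PND 16 large and 26.6 ± 7.5% at PND 40 (mean ± SD of CPM shares, n = 3 pools each, with no correction for length). This share was computed after the values of both genes were seen, and it was not tested.

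Snrpe (chr1:133603871-133610291, minus strand) was at 7.07, 7.07 and 7.25 CPM at PND 13, at 5.34, 5.59 and 4.98 in PND 16 small, at 8.88, 9.0 and 7.40 in PND 16 large and at 8.41, 9.64 and 9.77 at PND 40. It was lowest in the PND 16 small pools, and the competent pools all lay above the non-competent pools, with a log2 fold change of 0.51 (SE 0.14, adjusted p = 0.0159). It was 0.61 without the 3 pools with high granulosa markers (adjusted p = 0.0364), which also met the criterion on fold. Snrpd3, the most abundant Sm mRNA in CPM, ranged from 22.2 to 25.6 CPM in the non-competent and from 24.1 to 29.9 CPM in the competent pools (log2 fold change of 0.17, adjusted p = 0.12).

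**Figure D3:**
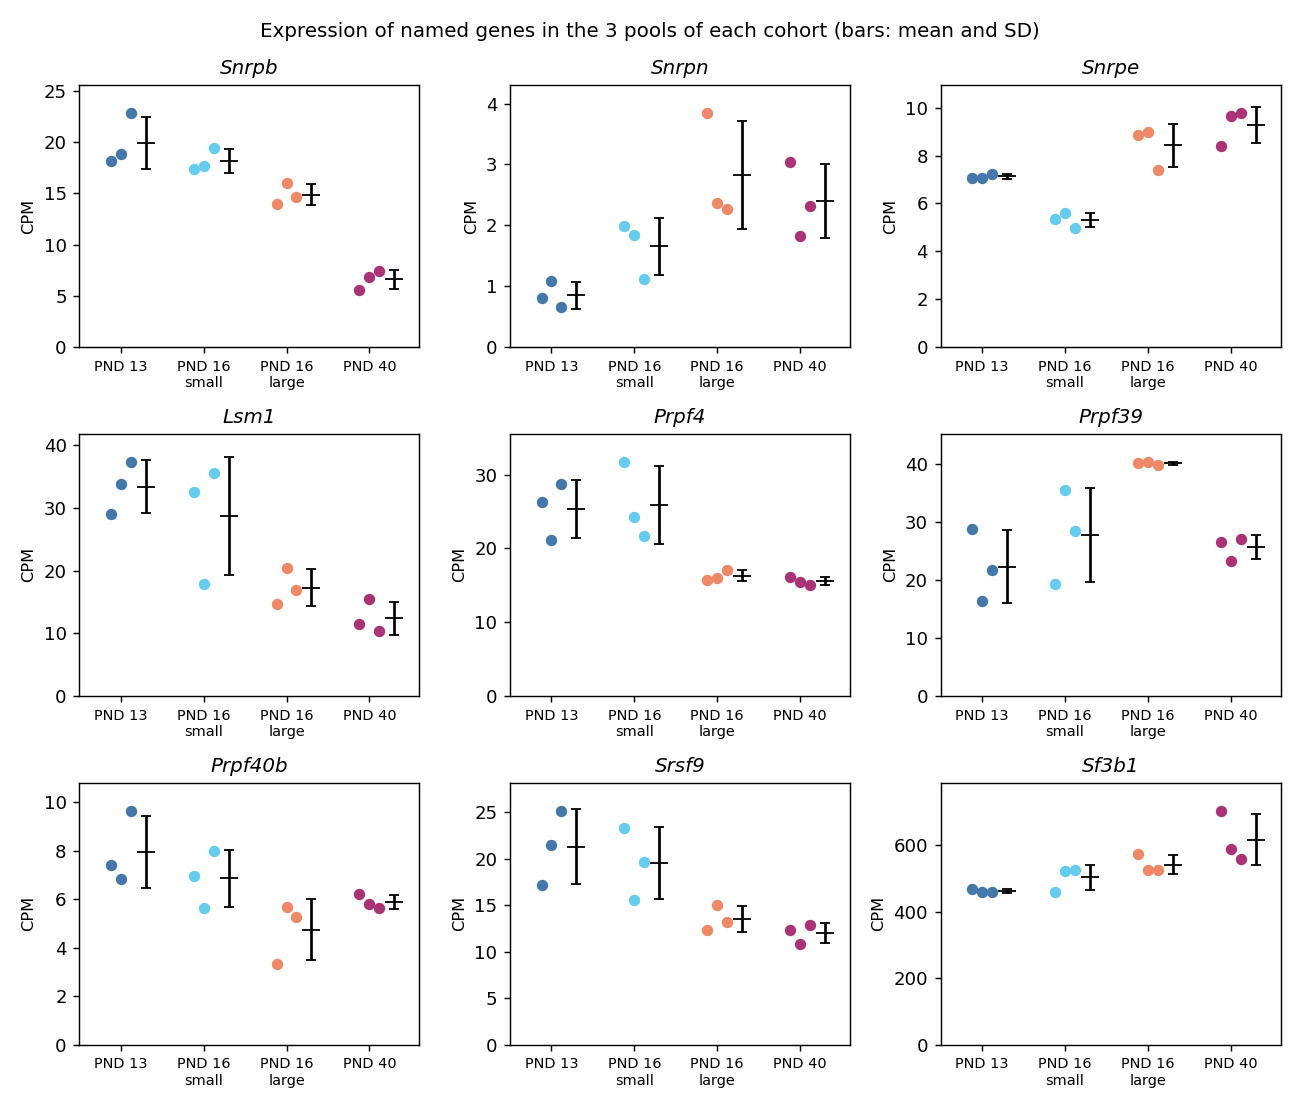
Level (CPM) of 9 named genes in each pool of the 4 cohorts, with mean and SD of the 3 pools beside the points. Snrpb drops to 5.62 to 7.42 CPM at PND 40, Prpf4 is lower in all 6 pools of PND 16 large and PND 40, and Prpf39 stands at 39.8 to 40.3 CPM in the PND 16 large pools alone.

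The proteins particular to the U1 and U2 snRNPs showed small differences. The U2 genes Snrpa1 and Snrpb2, whose products sit together on U2 RNA, were higher in competent oocytes on adjusted p alone, and the U1 genes Snrpa and Snrpc had log2 fold changes of 0.04 (adjusted p = 0.864) and -0.05 (adjusted p = 0.813). Snrpa1 (chr7:66059003-66074587, plus strand) was at 16.1, 17.9 and 20.1 CPM (lowest, median and highest) in the non-competent pools and at 20.4, 23.0 and 24.9 CPM in the competent pools. These ranges did not overlap, and the log2 fold change was 0.35 (SE 0.093, adjusted p = 0.0114). Snrpb2 had ranges of 31.3 to 39.0 and 35.6 to 46.1 CPM, which overlapped, and a log2 fold change of 0.25 (adjusted p = 0.0303). That call was lost in 8 of the 12 fits that left out 1 pool (adjusted p from 0.0525 to 0.0751) and without the 3 pools with high granulosa markers (adjusted p = 0.163).

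SF3A and SF3B are the parts of U2 that hold the branch point. Of their 9 genes, 3 were higher in competent oocytes on adjusted p alone (Sf3b1, Sf3b3 and Sf3a3), none was lower, none reached 1.5-fold, and the median log2 fold change was 0.18. Sf3b1 (chr1:54985169-55027481, minus strand) was at 467, 460 and 458 CPM at PND 13, at 460, 523 and 524 in PND 16 small, at 573, 525 and 525 in PND 16 large and at 703, 588 and 558 at PND 40. The highest non-competent pools came within a few CPM of the lowest competent pools without overlapping them. The log2 fold change was 0.26 (SE 0.075, adjusted p = 0.0161), from 482 ± 32.5 to 579 ± 66 CPM, and the adjusted p was 0.0705 without the 3 pools with high granulosa markers. Sf3b3 rose by a log2 fold change of 0.24 (adjusted p = 0.00595) and kept its call without those pools (0.30, adjusted p = 0.0146), whereas the call of Sf3a3 (log2 fold change of 0.21, adjusted p = 0.0320) was lost in 5 of the 12 fits that left out 1 pool, with adjusted p up to 0.0762. The smaller subunit genes Sf3b5 and Sf3b6 had log2 fold changes of 0.23 (adjusted p = 0.154) and -0.20 (adjusted p = 0.418). The summed level of the 9 genes was 1192 to 1287 CPM in the non-competent and 1305 to 1611 CPM in the competent pools.

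U2AF pairs a large subunit that reads the polypyrimidine tract, U2af2, with a small subunit that reads the AG at the end of the intron, U2af1 or its relative U2af1l4. U2af1l4 (chr7:30563301-30565365, plus strand) ranged from 34.9 to 48 CPM with a median of 41.2 in the non-competent pools, and from 45.3 to 53.1 CPM with a median of 49.8 in the competent pools. The ranges overlapped, with a log2 fold change of 0.26 (SE 0.087, adjusted p = 0.0328, and 0.165 without the 3 pools with high granulosa markers). The call was lost in 8 of the 12 fits that left out 1 pool, with adjusted p from 0.0583 to 0.0857. This gene shares 60.3% of its words with other genes, chiefly a readthrough gene, so its reads are uncertain. U2af2 ranged from 76.3 to 105 CPM and from 84.8 to 122 CPM (log2 fold change of 0.18, adjusted p = 0.201). U2af1, which shares 51.3% of its words with pseudogenes, was at 3.68 to 4.75 CPM and 4.30 to 6.01 CPM (adjusted p = 0.362).

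LSm proteins form a ring like that of the Sm proteins. The ring with Lsm8 binds U6 RNA in the nucleus, whereas the ring with Lsm1 in its place binds deadenylated mRNA in the cytoplasm and promotes its decapping. Lsm1 (chr8:25785288-25803975, plus strand) had the largest fall of all 54 genes in the comparison by competence. It was at 29.0, 33.9 and 37.4 CPM at PND 13, at 32.5, 17.9 and 35.5 in PND 16 small, at 14.6, 20.4 and 16.8 in PND 16 large and at 11.5, 15.4 and 10.4 at PND 40. PND 16 small pool 2, one of the pools with high granulosa markers, lay among the competent pools, and the other 5 non-competent pools lay above all of them. The log2 fold change was -1.06 (SE 0.19, adjusted p = 0.000837), from 31.0 ± 7.03 to 14.8 ± 3.66 CPM, and it was -1.19 (adjusted p = 0.00139) without the 3 pools with high granulosa markers. No word of Lsm1 was shared with another gene.

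Among the subunits common to both rings, Lsm3 and Lsm6 were higher in competent oocytes on adjusted p alone, with log2 fold changes of 0.33 (adjusted p = 0.0163) and 0.31 (adjusted p = 0.0450), and both calls were lost without the 3 pools (adjusted p = 0.117 and 0.110). That of Lsm6 was also lost in 10 of the 12 fits that left out 1 pool, with adjusted p from 0.0551 to 0.0921. Lsm6, the most abundant LSm mRNA in CPM, ranged from 21.7 to 37.7 CPM in the non-competent and from 36.8 to 40.7 CPM in the competent pools. Lsm2 and Lsm4 had log2 fold changes of -0.04 (adjusted p = 0.816) and -0.03 (adjusted p = 0.901). Lsm8 was low, at 1.48 to 4.05 CPM and 1.39 to 3.17 CPM (log2 fold change of -0.31, adjusted p = 0.433). Lsm5 was at 0.515 to 1.94 CPM over all pools, where a difference was hard to detect at this depth, and Lsm7 did not pass the filter.

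Among the 5 tri-snRNP genes, Prpf4 was lower in competent oocytes and the other members had log2 fold changes between 0.01 and 0.18, none with an adjusted p of at most 0.05. Prpf4 codes for a protein of the U4/U6 snRNP that binds the product of Prpf3. Prpf4 (chr4:62408797-62426990, plus strand) was at 26.2, 21.1 and 28.7 CPM at PND 13, at 31.7, 24.2 and 21.7 in PND 16 small, at 15.7, 16.0 and 17.1 in PND 16 large and at 16.2, 15.4 and 15.1 at PND 40. The 6 competent pools lay close together and below every non-competent pool. The log2 fold change was -0.69 (SE 0.11, adjusted p = 0.000395), and it was -0.64 (adjusted p = 0.00927) without the 3 pools with high granulosa markers. Its partner Prpf3 was at 58.0 to 67.9 CPM and 59.8 to 71.6 CPM (log2 fold change of 0.01, adjusted p = 0.952). Prpf8 ranged from 673 to 804 CPM and from 755 to 808 CPM (log2 fold change of 0.15, adjusted p = 0.0511), and Prpf6 had a log2 fold change of 0.18 (adjusted p = 0.0516).

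The 8 other PRPF genes act at different steps. Prpf18, needed for the last catalytic step, and Prpf38a and Prpf38b, which join when the complex is activated, were higher in competent oocytes on adjusted p alone, and Prpf4b, a kinase of the tri-snRNP, was lower. Prpf38b (chr3:108902805-108911727, minus strand) was at 37.7, 40.5 and 49.7 CPM (lowest, median, highest) in the non-competent pools and at 52.1, 56.1 and 59.1 CPM in the competent pools, with no overlap. Its log2 fold change was 0.43 (SE 0.079, adjusted p = 0.00118), and it was 0.46 (adjusted p = 0.00472) without the 3 pools with high granulosa markers. Prpf4b ranged from 52.3 to 67.7 CPM and from 42.9 to 50.8 CPM, again with no overlap (log2 fold change of -0.32, adjusted p = 0.00823). Prpf40b, which links U1 to the branch point, had the largest log2 fold change of the group, -0.48 (SE 0.18), but an adjusted p of 0.0562. It was at 7.40, 6.84 and 9.66 CPM at PND 13, at 6.95, 5.64 and 8.01 in PND 16 small, at 3.31, 5.68 and 5.25 in PND 16 large and at 6.22, 5.81 and 5.66 at PND 40.

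SR proteins went both ways. Of 10 tested, Srsf2, Srsf4 and Srsf10 were higher in competent oocytes and Srsf7, Srsf9 and Srsf11 lower on adjusted p, and among these Srsf9 alone passed 1.5-fold. Their median log2 fold change was -0.03. Srsf9 (chr5:115327177-115333080, plus strand), a short relative of Srsf1, was at 17.1, 21.5 and 25.2 CPM at PND 13, at 23.3, 15.6 and 19.7 in PND 16 small, at 12.3, 15.0 and 13.3 in PND 16 large and at 12.4, 10.8 and 12.9 at PND 40. All competent pools lay below all non-competent pools, with a log2 fold change of -0.68 (SE 0.13, adjusted p = 0.00139), and of -0.75 (adjusted p = 0.00295) without the 3 pools with high granulosa markers. Srsf11 (chr3:158010473-158036639, minus strand), an SR-related protein, fell from 32.9 ± 3.37 to 22.5 ± 2.72 CPM with no overlap (log2 fold change of -0.55, SE 0.10, adjusted p = 0.00120). Srsf7, which also takes part in mRNA export, fell from 20.5 ± 3.83 to 14.7 ± 1.74 CPM (log2 fold change of -0.48, adjusted p = 0.0137, and 0.147 without the 3 pools). Srsf11, Srsf7, Prpf38b, Prpf4b and Sf3b3 were described after their values were seen.

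Srsf2 (chr11:116849901-116853094, minus strand), the most abundant SR protein mRNA in CPM, was at 103, 117 and 121 CPM (lowest, median, highest) in the non-competent pools and at 135, 141 and 152 CPM in the competent pools. These ranges did not overlap (log2 fold change of 0.31, SE 0.057, adjusted p = 0.00107), and the call held without the 3 pools (0.35, adjusted p = 0.00834). Its exons overlap those of Mettl23 and Mfsd11 on the other strand, and whether the authors' counting used strand is not given in the sources used here. Those neighbours were at 0.632 to 1.48 CPM and 4.20 to 11.4 CPM. Srsf4 rose by a log2 fold change of 0.35 (adjusted p = 0.0120), a call that was lost without the 3 pools (0.30, adjusted p = 0.0907). Gm12992, which overlaps it on the other strand, was at 7.63 to 13.8 CPM. Srsf10, a splicing repressor when dephosphorylated, rose by 0.30 (adjusted p = 0.0108). Srsf1, Srsf3, Srsf5 and Srsf6 had log2 fold changes between -0.24 and 0.13, with adjusted p from 0.252 to 0.696.

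**Figure D4:**
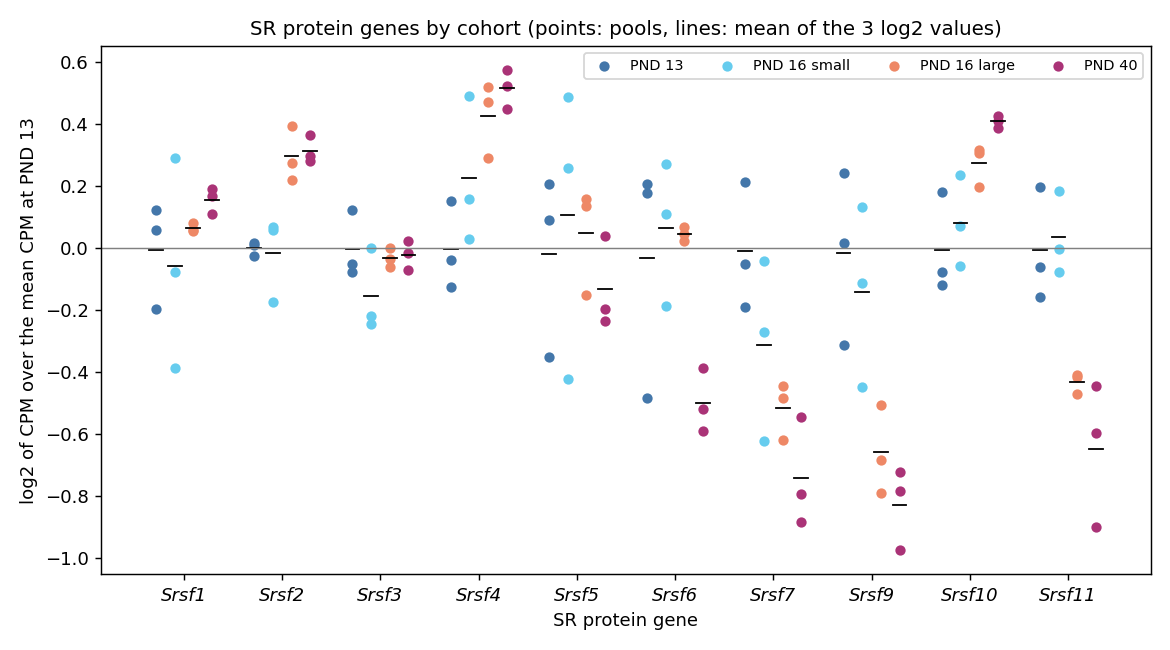
Log2 of the CPM of each pool over the mean CPM at PND 13 for the 10 SR protein genes tested, by cohort, with lines at the mean of the 3 log2 values. Srsf2, Srsf4 and Srsf10 lie above 0 in all pools of PND 16 large and PND 40, Srsf7, Srsf9 and Srsf11 lie below 0 in all of them, and Srsf6 drops at PND 40.

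Promoter sequence was read for the genes that moved, as a feature the rule did not use. RefSeq promoter windows (250 bases before to 50 after the start, GRCm38.p6, the most upstream start of a gene) were held for 47 of the 56 genes and for 10862 of the genes tested. The windows were rich in CpG, with a median of 24 CpG per window beside 20 over all genes. CGGAAG, the core of sites for ETS factors, occurred on either strand in 59.6% of the 47 windows and in 29.9% of all windows. TGCGCA, the core of sites for NRF1, occurred in 36.2% and 14.1%, and ATGGCG, the core of sites for YY1, in 27.7% and 15%. The remaining motifs were closer to the share over all genes: GGGCGG (sites for SP1) in 68.1% and 62.1%, CCAAT in 42.6% and 39.2%, CACGTG in 8.51% and 10.1%, and TATAAA in 8.51% and 7.42%. Of the 15 windows of genes higher in competent oocytes on adjusted p alone, 10 held CGGAAG, and of the 5 windows of genes lower there, 4 did. CCAAT was in 7 of the 15 and in 0 of the 5. These are counts of letters and not of bound sites. The 250 bases before the start are shown for a pair that fell (Prpf4 and Srsf9) and a pair that rose (Prpf38b and Snrpe), so that their motifs can be compared. Capitals mark any of the 7 motifs on either strand.
Prpf4, chr4:62408533-62408782, plus strand: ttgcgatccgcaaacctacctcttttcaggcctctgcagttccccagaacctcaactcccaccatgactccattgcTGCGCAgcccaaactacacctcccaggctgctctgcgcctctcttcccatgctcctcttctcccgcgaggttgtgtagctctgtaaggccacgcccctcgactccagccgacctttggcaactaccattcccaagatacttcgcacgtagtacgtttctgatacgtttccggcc
Srsf9, chr5:115326927-115327176, plus strand: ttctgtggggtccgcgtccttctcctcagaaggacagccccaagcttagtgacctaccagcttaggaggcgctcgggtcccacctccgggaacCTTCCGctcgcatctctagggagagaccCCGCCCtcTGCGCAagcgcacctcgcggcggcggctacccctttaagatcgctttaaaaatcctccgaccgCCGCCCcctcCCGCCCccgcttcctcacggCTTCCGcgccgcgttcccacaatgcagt
Prpf38b, chr3:108911730-108911979, minus strand: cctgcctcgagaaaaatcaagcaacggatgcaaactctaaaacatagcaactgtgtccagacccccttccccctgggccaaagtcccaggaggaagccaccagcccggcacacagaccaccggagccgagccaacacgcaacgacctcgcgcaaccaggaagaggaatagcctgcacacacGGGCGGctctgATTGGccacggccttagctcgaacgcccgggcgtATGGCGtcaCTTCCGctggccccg
Snrpe, chr1:133610281-133610530, minus strand: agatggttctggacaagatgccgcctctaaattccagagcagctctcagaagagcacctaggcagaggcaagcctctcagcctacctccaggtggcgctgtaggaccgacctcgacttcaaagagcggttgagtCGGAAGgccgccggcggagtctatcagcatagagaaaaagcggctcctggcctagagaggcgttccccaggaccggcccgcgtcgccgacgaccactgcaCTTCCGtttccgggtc
The Srsf9 window held the letters given for SP1, ETS factors and NRF1, whereas the Prpf4 window held those for NRF1 alone. The Prpf38b window held those for SP1, ETS factors and YY1 and the CCAAT box, and the Snrpe window held those for ETS factors alone. The printed stretches of Prpf4, Srsf9, Prpf38b and Snrpe held 14, 25, 19 and 19 CpG.

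The pairwise comparisons set single cohorts against each other. They share pools with each other and with the comparison by competence, so their values stand side by side and are not independent. Between the non-competent cohorts, PND 16 small vs. PND 13, edgeR called 0 of the 54 genes, beside 0.179% of all genes higher and 0.194% lower, and on adjusted p alone it was also 0, beside 0.689% and 0.237%. The median log2 fold change was 0.01 over the 54 genes and -0.03 over all genes. At an unadjusted p under 0.05 there were 7 genes, and the share of all genes at that threshold is not given here. DESeq2 and limma each called 1 gene, also without that share. That gene was Sf3b4, a subunit of SF3B that contacts the pre-mRNA beside the branch point, at 12.5, 12.9 and 12.5 CPM at PND 13 and at 8.75, 7.87 and 6.23 CPM in PND 16 small. The groups did not overlap, and the log2 fold change was -0.73 with an adjusted p of 0.0551 by edgeR and 0.00174 by DESeq2. Sf3b4 was at 9.95 to 12.4 CPM in PND 16 large and at 9.61 to 11.1 CPM at PND 40. It shares 51.2% of its words with other genes, chiefly a pseudogene, and it is named here after its values were seen.

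Within PND 16, large vs. small, 1 gene was higher (Snrpe) and 1 lower (Prpf4), beside 1.43% and 4.76% of all genes, and 5 and 3 on adjusted p alone, beside 4.98% and 7.32%. The median log2 fold change was 0.12 over the 54 genes and -0.02 over all genes. Snrpe had a log2 fold change of 0.67 (adjusted p = 0.0230) and Prpf4 of -0.67 (adjusted p = 0.0148). In a model of the 6 pools compared alone their adjusted p was 0.0918 and 0.0506. These mice were of the same age and differed in body weight. The count depended on single pools: it was 0 without PND 16 large pool 1 or pool 2, 1 without PND 16 small pool 3 and 6 without PND 16 small pool 2, which has the highest granulosa marker sum. Without the 3 pools with high granulosa markers it was 6, with Lsm1, Prpf39, Snrpd1 and Srsf9 added to Snrpe and Prpf4. On adjusted p alone 7 of the 56 genes then tested were higher and 4 lower, beside 6.24% and 7.97% of all genes. The share of all genes by both criteria is not given here for that fit.

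From PND 13 to PND 16 large, 2 genes were higher (Snrpn and Prpf39) and 4 lower (Lsm1, Prpf40b, Srsf9 and Prpf4), beside 3.52% and 9.8% of all genes, and 9 and 7 on adjusted p alone, beside 12.6% and 13%. The median log2 fold change was 0.13 over the 54 genes and -0.04 over all genes. Prpf39, a partner of the U1 snRNP, was at 28.8, 16.3 and 21.7 CPM at PND 13, at 19.3, 35.4 and 28.5 in PND 16 small, at 40.0, 40.3 and 39.8 in PND 16 large and at 26.5, 23.2 and 27.1 at PND 40. The PND 16 large pools lay close together and above all others. The log2 fold change from PND 13 was 0.85 (adjusted p = 0.0115), and that from PND 16 large to PND 40 was -0.64 (adjusted p = 0.0876). The latter was called at -0.65 (adjusted p = 0.0203) where the 3 pools with high granulosa markers were left out of the model, although it uses none of them. Snrpn rose by 1.72 on the log2 scale (adjusted p = 0.00693) and Prpf40b had a log2 fold change of -0.75 (adjusted p = 0.0360). The count was 3 without PND 13 pool 3 and 3 without PND 16 large pool 1. The call of Prpf40b was lost without either of these pools, without PND 13 pool 1 or without PND 16 large pool 3, with adjusted p from 0.0570 to 0.157. Srsf9 was lost without PND 13 pool 3 (adjusted p = 0.0832) or PND 16 large pool 1 (adjusted p = 0.0684), Lsm1 without PND 16 large pool 1 (adjusted p = 0.0535) and Prpf4, at 1.45-fold, without PND 13 pool 3. Without the 3 pools with high granulosa markers, which leaves PND 13 with 1 pool whose spread is taken from the other cohorts, 2 of the 6 calls remained (Prpf39 and Lsm1), and the adjusted p of Snrpn was 0.152. On adjusted p alone 2 genes were then higher and 1 lower, beside 4.51% and 5.42% of all genes.

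**Figure D5:**
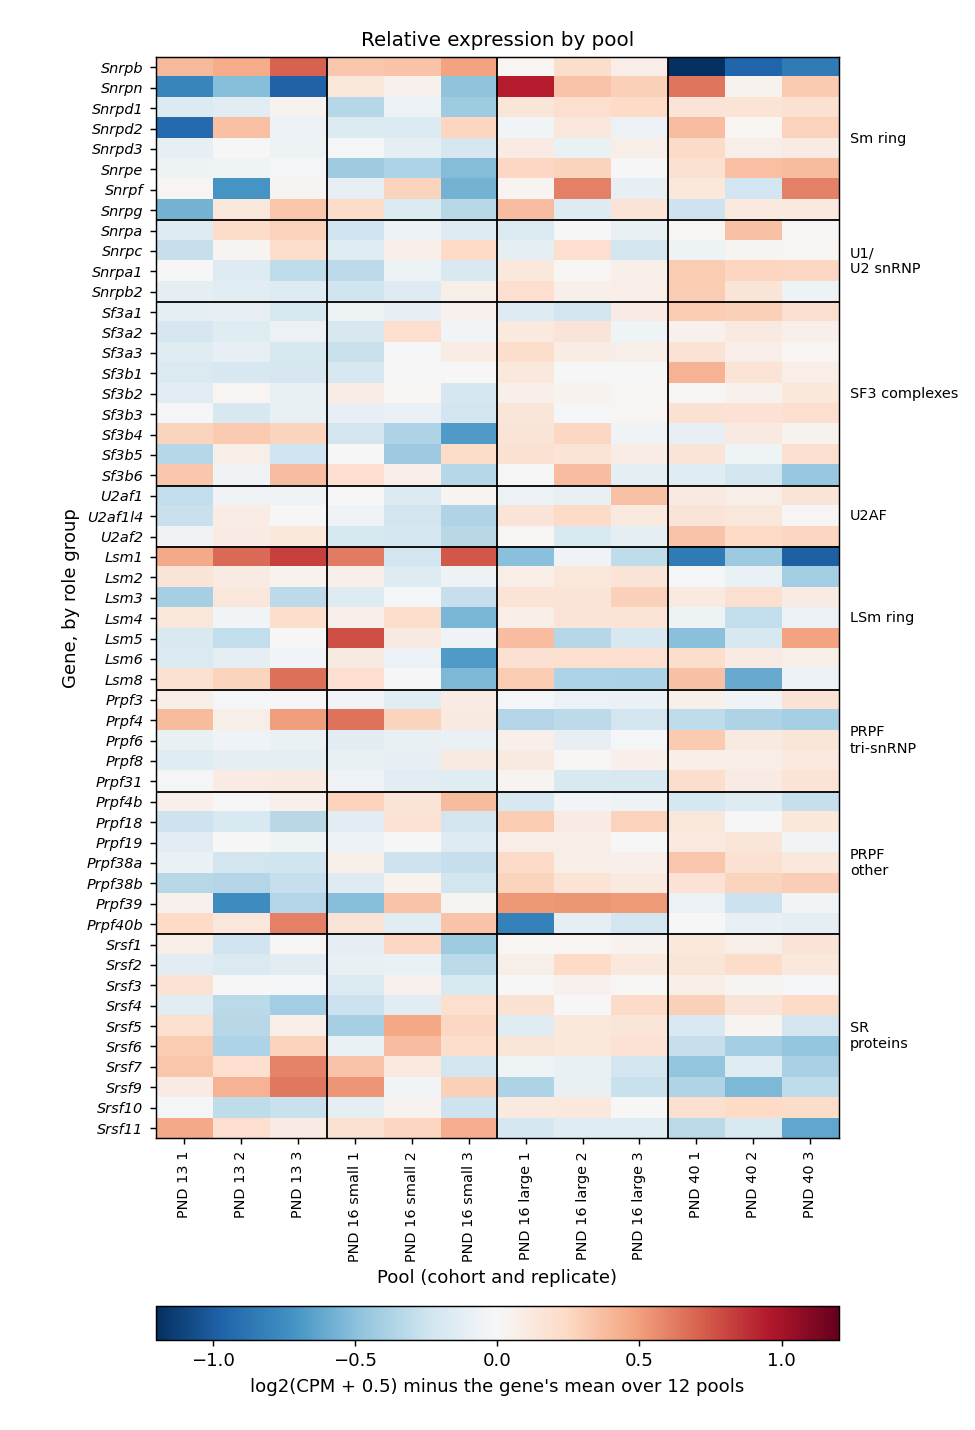
Level of 53 of the 54 genes in each pool, as log2(CPM + 0.5) minus the mean of that gene over the 12 pools, by role group and cohort. Values past the ends of the scale take the end colour, Snrpb and Lsm1 turn blue towards PND 40, and Prpf39 is red in the 3 PND 16 large pools.

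In PND 40 vs. PND 13, 1 gene was higher (Snrpn) and 6 lower (Snrpb, Lsm1, Srsf9, Srsf7, Prpf4 and Srsf11), beside 6.31% and 12.6% of all genes, and 13 and 8 on adjusted p alone, beside 16.3% and 16.7%. The median log2 fold change was 0.20 over the 54 genes and 0.0044 over all genes. Snrpb had a log2 fold change of -1.59 (adjusted p = 2.6e-05), Lsm1 of -1.43 (adjusted p = 0.000729) and Snrpn of 1.48 (adjusted p = 0.0110). Without the 3 pools with high granulosa markers PND 13 keeps pool 2 alone, so only effect sizes are given for that fit. The log2 fold change was then -1.50 for Snrpb, -1.45 for Lsm1, -0.84 for Srsf9 and 1.13 for Snrpn. It was -0.54 for Srsf7, -0.44 for Prpf4 and -0.57 for Srsf11. The adjusted p of Snrpn was 0.0501 without PND 13 pool 3 and 0.0531 without PND 40 pool 1, and Srsf11 fell short of the fold criterion without PND 13 pool 1 or PND 40 pool 3 (1.44-fold and 1.43-fold). In PND 40 vs. PND 16 small, 1 gene was higher (Snrpe) and 5 lower (Snrpb, Lsm1, Prpf4, Srsf9 and Srsf11), beside 6.89% and 10.3% of all genes, and 12 and 7 on adjusted p alone, beside 14.5% and 15.7%. The median log2 fold change was 0.16 over the 54 genes and -0.01 over all genes. There Snrpe had a log2 fold change of 0.80 (adjusted p = 0.00315), Snrpb of -1.45 (adjusted p = 4.08e-05) and Lsm1 of -1.21 (adjusted p = 0.00236). Without PND 16 small pool 1, Prpf4 and Srsf9 fell short of the fold criterion (1.47-fold and 1.46-fold), as did Srsf11 without PND 40 pool 3 (1.47-fold).

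Between the competent cohorts, PND 40 vs. PND 16 large, no gene was higher and 1 was lower (Snrpb), beside 2.34% and 1.32% of all genes. The log2 fold change of Snrpb was -1.16 (adjusted p = 0.00108), from 14.9 ± 1.06 to 6.64 ± 0.927 CPM (n = 3 pools each). The call of Snrpb held in each of the 6 fits that left out 1 of these pools. On adjusted p alone 2 genes were higher and 1 lower, beside 3.59% and 3.24% of all genes, and the median log2 fold change was 0.01 over the 54 genes and 0.0037 over all genes. The higher ones were U2af2, with a log2 fold change of 0.37 (adjusted p = 0.0150) from 90.4 ± 6.25 to 117 ± 4.63 CPM, and Sf3a1, with 0.35 (adjusted p = 0.0234) from 222 ± 26.4 to 283 ± 12 CPM. Both were fragile: leaving out 1 pool ended the call of U2af2 in 4 of 6 fits and that of Sf3a1 in 5 of 6, with adjusted p from 0.0510 to 0.110. Srsf6 was at 34.4 to 35.5 CPM in PND 16 large and at 22.5 to 25.9 CPM at PND 40, without overlap, but its adjusted p was 0.0707.

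Around these genes stand other splicing factors and the machinery that assembles snRNPs. Of 126 such genes listed, all of which were tested, 3 were higher in competent oocytes and 6 lower by both criteria. These are 2.38% and 4.76%, beside 3.78% and 11.2% of all genes. On adjusted p alone 29 were higher and 13 lower, or 23% and 10.3%, beside 14.2% and 16.5% of all genes. The lists within the 126 are to be read against the same shares of all genes. Among the 20 other snRNP and core spliceosome genes, 8 were higher on adjusted p alone and 0 lower. Of the 25 genes of the Prp19 complex, helicases and catalytic step, 9 were higher and 4 lower, and of the 23 hnRNP genes, 3 were higher and 3 lower. The 18 snRNP assembly genes had 2 higher and 5 lower, and 3 of the lower ones passed 1.5-fold. Gemin4 and Gemin2 belong to the SMN complex, which loads Sm proteins onto small nuclear RNA. Gemin4 fell from 12.7 to 3.97 CPM (mean CPM, log2 fold change of -1.68, SE 0.26, adjusted p = 0.000360) and Gemin2 from 4.14 to 1.86 CPM (-1.16, SE 0.23, adjusted p = 0.00200). Neither gene's groups overlapped. Cwc22, which places the exon junction complex on spliced mRNA, fell from 159 to 77.7 CPM (-1.04, SE 0.21, adjusted p = 0.00289), and its groups overlapped. Ctnnbl1, a partner of the Prp19 complex, rose from 117 to 184 CPM without overlap (0.66, SE 0.076, adjusted p = 5.27e-05). The minor spliceosome genes Zmat5 and Scnm1 rose by 0.71 (adjusted p = 0.0476) and 0.62 (adjusted p = 0.0129) on the log2 scale, with overlap of the groups in both.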

How the data were processed

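RNA had been depleted of ribosomal RNA and made into directional libraries, which were sequenced on an Illumina HiSeq. The authors used the Rosalind platform to process their reads. The submitters' processing notes name FastQC, STAR, HTSeq, DESeq2, DESeq and HOMER and the build mm10, and the versions, annotation and strand setting are not given in the sources used here. The authors deposited raw counts of reads per gene, without normalization, and log2 values of counts divided by a size factor. The counts were used for all values, and the log2 values for an alternative with limma.

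Low genes were removed with filterByExpr (minimum count 10) of edgeR 4.0.16 (R 4.3.3), and limma 3.58.1 and DESeq2 1.42.0 served as alternatives. CPM was computed from each pool's total over the tested genes, scaled by TMM. Robust quasi-likelihood models of the 4 cohorts (6 pairwise comparisons) and of competent vs. non-competent pools were fitted over all 13943 genes, with Benjamini-Hochberg adjustment over them, and were tested on simulated data. Calls needed an adjusted p not above 0.05 and a change of 1.5-fold or more. SE is the absolute log2 fold change over the root of the F statistic. Pools of a cohort differed by more than counting error (chi-square per gene of 9.24 to 50.2), and counts carry no molecular identifiers, so floors cover counting error only. Exon length, overlaps and shared words come from GENCODE M21. Values per pool are given for the gene of each role group with the largest change by competence, up to 2 called genes per direction in each comparison, and the most abundant gene of each group. For the other splicing genes these are up to 3 called genes per direction. Of the members, 1 is counted in the totals and not reported by itself here. Other members named were chosen after their values were seen. The members and lists were chosen with earlier results of these data known. The alternatives were other tools, scalings and filters, the granulosa marker level as a covariate, the replicate number as a block, a model of only the pools compared, no criterion on fold and each pool left out. Leaving out the 3 pools with high granulosa markers was chosen after seeing the data.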

Additional observations from a re-analysis of the deposited data

Results flagged for a closer look

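Among the genes with values per pool, 4 of 36 groups of 6 pools held a pool whose gap to its nearest neighbour exceeded the critical share of the group's range in Dixon's test, which flags about 1 group in 20 by chance. Sf3b1 was at 703 CPM in PND 40 pool 1, above the next competent pool at 588 CPM. Prpf40b was at 3.31 CPM in PND 16 large pool 1, below the next competent pool at 5.25 CPM. PND 16 small pool 3, which has the lowest total count of the 12, was high among the non-competent pools in 2 genes: Snrpb2 was at 39.0 CPM there with the next pool at 34.1 CPM, and Prpf8 was at 804 CPM with the next pool at 702 CPM.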

How the results depend on the processing

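Without the criterion on fold, the called genes numbered 16 in PND 16 large vs. PND 13, 21 in PND 40 vs. PND 13, 8 in PND 16 large vs. small, 19 in PND 40 vs. PND 16 small, 3 in PND 40 vs. PND 16 large and 24 by competence. In PND 16 small vs. PND 13 the count was 1 with a stricter filter on low counts, with the granulosa covariate, with limma and with DESeq2. Without the 3 pools with high granulosa markers PND 13 keeps pool 2 alone, so no count is given here for its comparisons. Without these 3 pools the count was 6 in PND 16 large vs. small. By competence it was 4, with Snrpb and Snrpn lost and Snrpe gained, and Prpf39 was gained in PND 40 vs. PND 16 large. PND 16 large vs. small gave 4 with the granulosa covariate and 0 in a model of its own pools. PND 40 vs. PND 16 large gave 2 with the covariate, in a model of its own pools and with DESeq2, Prpf39 being added. Leaving out 1 pool gave 0 to 1 in PND 16 small vs. PND 13, 3 to 7 in PND 16 large vs. PND 13, 6 to 9 in PND 40 vs. PND 13, 0 to 6 in PND 16 large vs. small, 5 to 7 in PND 40 vs. PND 16 small, 1 to 1 in PND 40 vs. PND 16 large and 4 to 5 by competence. The cause of these changes was not tested. For the named genes, 383 alternative values kept direction and their status by both criteria together, 22 lost a call by both criteria and 0 reversed. A gene called on adjusted p alone counts as kept there even where its adjusted p rose above 0.05, as it did for U2af1l4 and Sf3b1. Scaling by total counts in place of TMM took the median of all genes from -0.036 to -0.13 in PND 16 large vs. PND 13 and from -0.026 to -0.12 in PND 16 small vs. PND 13. On adjusted p alone 5 genes were then higher and 8 lower in PND 16 large vs. PND 13, beside 9 and 7 with TMM. Pools of the same number did not deviate together (18 pairs, correlations of -0.44 to 0.075), and with the number as a replicate block the counts were 0, 6, 7, 2, 6, 1 and 5 in the order of the comparisons from PND 16 small vs. PND 13 to competence, as without it. Genes under 2 CPM rest on few reads, which limits what can be detected there.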
